A study of Mus musculus with 33 samples.

Results

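The genes described here act in mitosis and on the mitotic spindle. A list of 45 mouse gene symbols, chosen for what their products do in cell division, was matched to the gene symbols of a table of read counts, and 43 of the 45 were found among its 17120 genes. Nek2 and Kif11 were not analysed here. The counts came from RNA sequencing of 33 mouse cell cultures made from embryonic stem cells that carried the ScxGFP reporter, in which green fluorescent protein follows the tendon transcription factor gene Scx. Stem cells were differentiated as embryoid bodies, with the BMP inhibitor LDN-193189 and the Wnt agonist CHIR, to paraxial mesoderm (PM), which was collected on day 6 (D6) as the common starting point. PM was then plated as a monolayer with TGFβ1, the smoothened agonist SAG and FGF2 in all cultures, to which either CD1530, an agonist of retinoic acid receptor γ and the study's tendon condition, or AGN 193109 (AGN), an inverse agonist of retinoic acid receptors and its fibrocartilage condition, was added.

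Both conditions have libraries of 5 time points, at 6 h (D6.25), 18 h (D6.75), 36 h (D7.5), 60 h (D8.5) and 96 h (D10) after induction began. With PM this gives 11 groups of 3 replicates, which the study describes as biological replicates. The protocol for PM in the study also adds AGN 193109 before D6, and whether the sequenced PM received it, and which of the study's stem cell lines was used, is not given in the sources used here. The labels give the PM samples as embryoid bodies and every later group as a monolayer, so plating and the induction medium cannot be told apart in any comparison with PM. PM served both conditions, and successive time steps share their middle group, so the comparisons below are not independent of each other where they share libraries.

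Mitosis is entered when cyclin-dependent kinase 1 (Cdk1) is switched on by its cyclins, and is carried forward by Polo-like and Aurora kinases. Kinetochores tie each chromosome to spindle microtubules, a checkpoint holds anaphase back until all are attached, and the anaphase-promoting complex (APC/C) then marks cyclin B and securin for destruction so that sister chromatids part and the cell divides. The transcripts of many of these genes accumulate together in G2 and M phase and are low in cells that have left the cycle, so in bulk RNA their level follows how many cells are cycling as well as the RNA each cell holds. A lower level in these libraries can therefore come from fewer cycling cells or from less RNA per cell, which cannot be told apart here.

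The 33 libraries held 17116084 to 38120841 counts each, with a median of 19899242, and AGN D8.5 replicate 1 was the deepest, the next holding 22775275. Levels are given as CPM, the counts of a gene relative to a fixed library total, after trimmed mean of M values (TMM) scaling. Tests are edgeR's quasi-likelihood F-test in a single fit of all 33 libraries, with Benjamini-Hochberg adjusted p over 17120 genes, and a gene is called where the adjusted p is under 0.05. Errors of log2 fold changes are standard errors (SE). CD1530 D6.75 replicate 1 stood apart from its replicates over all genes. The correlation (r) of its log2 levels was 0.9927 with each of them, lower than in any other pair of replicates, against 0.9976 between replicates 2 and 3. In the list it was low in several long transcripts: Mki67 was at 139, 249 and 274 CPM in the 3 CD1530 libraries of D6.75 and Cenpf at 113, 164 and 171 CPM, replicate 1 first. Cdk1 was among the genes that went the other way, at 152 CPM in replicate 1 and 132 CPM in the lowest of the group. Counts of calls that rest on D6.75 in CD1530 are therefore given with and without that library. The labelled cell types were checked against their markers. In PM, the paraxial mesoderm regulator Tbx6 was at 9.56 ± 0.77 CPM (mean ± SD, n = 3) and 7 of 8 paraxial mesoderm genes were over 1 CPM. In AGN, 7 of the 8 were over 1 CPM at D6.25 and 4 at D10. The 8 genes summed to 120 to 127 CPM in PM, the lowest of the 11 groups (213 to 217 CPM in AGN at D10), so neither their sum nor that count marks PM. In PM, 8 pluripotency genes summed to 3792 to 3916 CPM. The tendon factor Scx was at 6.41 ± 0.85 CPM in PM, 858 ± 17 CPM in CD1530 at D10 and 1223 ± 28 CPM in AGN at D10, so it was higher in the fibrocartilage condition than in the tendon condition, and the conditions are named here by their compounds.

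Promoters of the listed genes are shown first because a pair of short motifs recurs in them. The cell cycle genes homology region (CHR, TTTGAA or TTCGAA) and the CCAAT box are known from the promoters of genes that peak in G2 and M phase. RefSeq promoter windows of build GRCm38.p6, 250 bases before to 50 bases after a transcription start, were available for 36 of the 43 genes and for 27025 genes in all. A CHR on either strand was present in 28 of the 36 (77.8%), against 21.7% of all genes with a window. At least 2 CCAAT boxes on either strand were present in 19 of the 36 (52.8%), against 13.3%. Both together, in the same window, were found in 18 of the 36, against 2.68% of all genes. TTCGAA reads the same on both strands and was counted once, and the motifs share no letters that let a CHR be counted as a CCAAT box. These are matches of letters in a window of fixed size and no test was made on them.

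Of the 18 genes with both motifs, the 3 with the largest difference between conditions at D10 are printed, each on the strand of the gene from 5′ to 3′, with every CHR and CCAAT box of either strand in capitals. Aurka, at chr2:172370521-172370820 on the minus strand, has CCAAT boxes that begin 51 and 19 bases before the start and are 32 bases apart, and a TTTGAA at base 33 after it. Ckap2l, at chr2:129297163-129297462 on the minus strand, has CCAAT boxes that begin 122 and 14 bases before the start, the third one in the opposite direction (ATTGG) 40 bases before it, and a CHR on each strand. Ccnb2, at chr9:70421505-70421804 on the minus strand, has 3 CCAAT boxes that begin 87, 54 and 21 bases before the start, spaced by 33 bases, and TTTGAA at base 5 after it and at 167 bases before it.
Aurka: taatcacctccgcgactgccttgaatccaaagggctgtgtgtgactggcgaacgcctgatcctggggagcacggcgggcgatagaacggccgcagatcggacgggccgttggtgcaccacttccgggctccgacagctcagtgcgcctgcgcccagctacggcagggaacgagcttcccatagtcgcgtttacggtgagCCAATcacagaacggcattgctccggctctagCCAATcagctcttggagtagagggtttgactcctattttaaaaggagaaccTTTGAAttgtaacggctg
Ckap2l: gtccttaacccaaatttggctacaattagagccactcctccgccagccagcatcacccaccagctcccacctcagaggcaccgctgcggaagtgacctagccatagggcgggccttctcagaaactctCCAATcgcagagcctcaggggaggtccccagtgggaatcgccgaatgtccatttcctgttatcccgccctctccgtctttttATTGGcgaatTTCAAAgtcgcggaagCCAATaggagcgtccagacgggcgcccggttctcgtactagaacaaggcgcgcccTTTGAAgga
Ccnb2: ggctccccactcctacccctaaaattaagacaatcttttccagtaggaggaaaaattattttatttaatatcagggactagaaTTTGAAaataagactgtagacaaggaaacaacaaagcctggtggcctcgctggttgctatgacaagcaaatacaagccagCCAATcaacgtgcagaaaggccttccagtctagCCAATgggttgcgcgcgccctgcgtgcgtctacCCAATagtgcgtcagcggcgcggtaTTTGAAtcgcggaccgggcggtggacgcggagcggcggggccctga

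Summed over the 43 genes, mitotic transcripts were lower after plating than in PM, higher again at D7.5, and apart between the conditions at D10. PM held 6730.3, 6635 and 6749 CPM in its 3 libraries. At D6.25 the sum was 4672, 4567 and 4616 CPM in CD1530 and 4737, 4809 and 4771 CPM in AGN. At D6.75 it was 4905, 5226 and 5343 CPM in CD1530, replicate 1 being the lowest, and 4809, 4908 and 4918 CPM in AGN. CD1530 was thus ahead at D6.75 in replicates 2 and 3, while replicate 1 lay within the range of AGN.

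At D7.5 the sum was 5653, 5646 and 5661 CPM in CD1530 and 5883, 5778 and 5765 CPM in AGN. At D8.5 the ranges overlapped, with 5509.7, 5432 and 5486 CPM in CD1530 and 5469, 5463 and 5490.4 CPM in AGN. At D10 the sum was 4092, 3999.6 and 4126 CPM in CD1530 and 5282, 5299.8 and 5165 CPM in AGN, and the groups lay far apart. The D10 mean was 60.7% of the PM mean in CD1530 and 78.3% in AGN. No test was made on the sum.

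**Figure D1:**
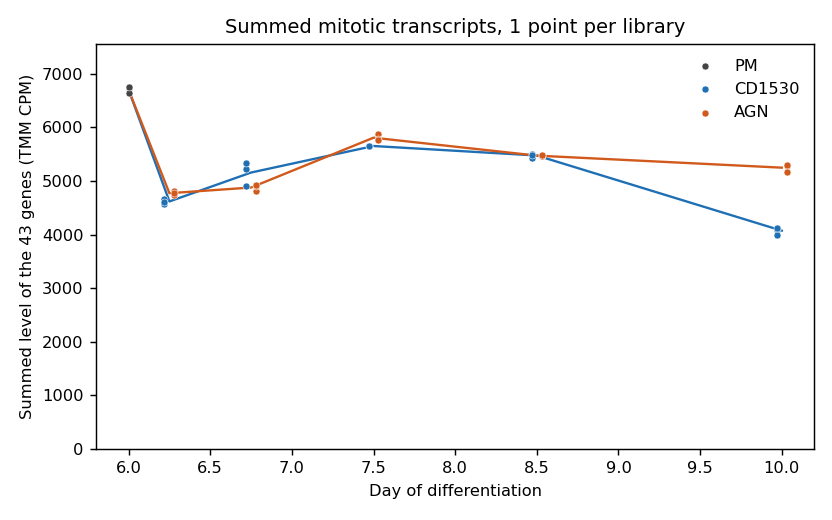
Summed TMM CPM of the 43 genes (y axis) against the day of differentiation (x axis), with 1 point per library and lines through the group means. PM starts at 6635 to 6749 CPM, the conditions run close together to D8.5, and at D10 CD1530 (3999.6 to 4126 CPM) lies below AGN (5165 to 5299.8 CPM).

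From PM to D6.25 nearly every listed gene fell in both conditions. In CD1530, 41 of the 43 were lower (33.3% of all genes were) and 1 was higher (34.5% of all genes), with a median log2 fold change of -0.52 against 0.00 over all genes. In AGN, 41 were lower (33.1% of all genes) and 0 were higher, with a median of -0.48 against 0.0037 over all genes. Kif20b, a kinesin needed for abscission, had the largest fall in both, from 179, 160.4 and 172 CPM in PM to 93.2, 92.6 and 92.3 CPM in CD1530 and 97.7, 104 and 95.8 CPM in AGN. Its log2 fold change was -0.88 ± 0.073 in CD1530 (adjusted p = 1.09e-11) and -0.78 ± 0.073 in AGN (adjusted p = 1.36e-10). These libraries did not overlap with PM. Markers of other cell types also moved over this step. The 8 pluripotency genes summed to 3792 to 3916 CPM in PM, 1845 to 1900.0 CPM in CD1530 and 1835 to 1864 CPM in AGN, and the 6 endoderm genes to 5.12 to 5.93, 174 to 185 and 197 to 200.4 CPM. The sums of the paraxial mesoderm, cartilage, tendon, endothelial and muscle genes were also higher at D6.25 than in PM. This held in every library of both conditions, and the sum of the neural genes was lower in all of them. The part of these cells in the fall of the mitotic genes was not tested.

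Large falls were also seen for the central spindle kinesins Kif23 (-0.75 and -0.62 in log2 fold change, CD1530 first) and Kif20a (-0.73 and -0.72), for cyclin B2, Ccnb2 (-0.74 and -0.74), and for the microtubule bundling protein Nusap1 (-0.73 and -0.64). The exceptions were few. Spc25, a subunit of the NDC80 complex that binds microtubules at the kinetochore, went from 40.6, 43.4 and 42.3 CPM in PM to 48.0, 47.4 and 48.9 CPM in CD1530, a rise of 0.19 ± 0.054, adjusted p = 0.00187. In AGN it was at 43.4, 48.1 and 45.4 CPM, which was not called (adjusted p = 0.0582). Bub3, a checkpoint protein, was not called in CD1530 (-0.048 ± 0.041, adjusted p = 0.307) and fell by a small amount in AGN (-0.13 ± 0.041, adjusted p = 0.00563). Mki67, which encodes the Ki-67 coat of mitotic chromosomes, was called in CD1530 (-0.41 ± 0.15, adjusted p = 0.0149) and not in AGN (-0.19 ± 0.14, adjusted p = 0.251).

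The recovery came over both of the next steps in CD1530 and mainly over the second in AGN. From D6.25 to D6.75, 25 of the 43 rose in CD1530 (25.8% of all genes rose) and 2 fell (20.1%), with a median log2 fold change of 0.19 against 0.02 over all genes. In AGN 9 rose over the same step (24.9% of all genes) and 4 fell (18.8%), with a median of 0.032 against 0.014. From D6.75 to D7.5, 22 rose in CD1530 (18.7% of all genes) and 0 fell, with a median of 0.12 against 0.012. In AGN 36 rose (14.2% of all genes) and 1 fell, Pttg1 (16.0% of all genes), with a median of 0.26 against -0.0038. Without CD1530 D6.75 replicate 1, the CD1530 steps had 27 higher and 3 lower to D6.75 and 22 higher to D7.5. With only the groups compared in the fit, they had 12 and 6 higher and 0 lower, and the AGN step to D6.75 had 12 higher and 9 lower. The AGN step to D6.75 had no stable balance between scalings, with 8 higher and 6 lower with DESeq2 size factors and 7 higher and 8 lower with library size alone.

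Tested as a difference between the steps themselves, 3 of the 43 had a higher step in CD1530 than in AGN from D6.25 to D6.75 (2.29% of all genes did), which were Tpx2, Ect2 and Cdk1. Cdk1 was at 128, 126 and 123 CPM at D6.25 and 152, 132 and 134 CPM at D6.75 in CD1530, and at 119.7, 124 and 121 and 108, 119 and 113 CPM in AGN, an interaction of 0.25 ± 0.062, adjusted p = 0.00936. Its step was called in CD1530 (0.15) and not in AGN (-0.10, adjusted p = 0.0617). From D6.75 to D7.5, 15 had a lower step in CD1530 than in AGN (3.41% of all genes did). They included Cdk1 (-0.37), its cyclins Ccna2, Ccnb1 and Ccnb2 (-0.20, -0.21 and -0.28), the kinases Plk1 and Aurka (-0.25 and -0.23), and 3 of the 4 chromosomal passenger genes, Birc5, Cdca8 and Incenp (-0.28, -0.26 and -0.19). Leaving out CD1530 D6.75 replicate 1 raised the first of these counts from 3 to 12, without CD1530 D6.75 replicate 2 it was 5, without any AGN D6.25 library or AGN D6.75 replicate 2 it was 1, and without AGN D6.75 replicate 1 it was 0. The second was 19 without CD1530 D6.75 replicate 1, and 3 with only the groups compared in the fit.

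**Figure D2:**
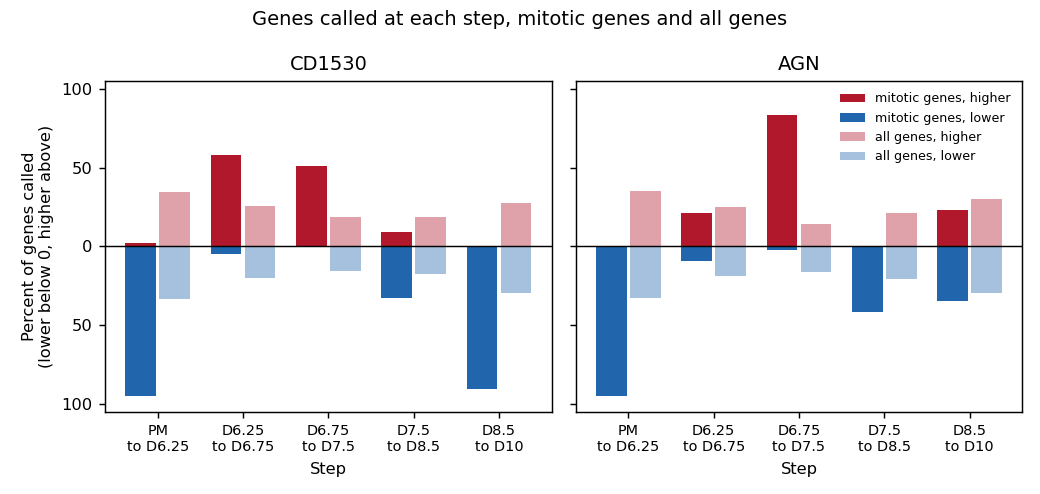
Percent of genes called at each time step (y axis, higher above 0 and lower below) in CD1530 (left) and AGN (right), for the 43 mitotic genes (full colour) and all 17120 genes (pale). From PM to D6.25, 41 of the 43 are lower in each condition. The calls to D6.75 are mostly higher in CD1530 (25 of 43) and few in AGN (9 of 43), those to D7.5 are higher in both (22 and 36), and from D8.5 to D10 39 are lower in CD1530 against 15 lower and 10 higher in AGN.

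Compared directly, the conditions gave no called gene at D6.25: by edgeR 0 of the 43 were called, and 0 by DESeq2, against 1.92% of all genes, and the log2 fold changes lay between -0.22 and 0.09. The unadjusted p of edgeR was under 0.05 for 3 of the 43. With only the 6 libraries of D6.25 in the fit, 4 were called, all lower in CD1530. At D6.75, 10 were higher in CD1530 (7.94% of all genes) and 0 lower, with a median of 0.081 against -0.0071 over all genes. They were Cdk1 (0.30), Spc25 (0.27), Ect2 (0.24), Dlgap5 (0.23), Birc5 (0.21), Knstrn (0.20), Cenpa (0.16), Ube2c (0.14), Ccnb2 (0.14) and Cdc20 (0.11). Replicate 1 was the lowest CD1530 library for Ect2 and Dlgap5 and the highest for the rest of them. Their fold changes without that library are not given here. Without CD1530 D6.75 replicate 1 the count was 16, and without AGN D6.75 replicate 1 or replicate 2 it was 6. With only the 6 libraries of D6.75 in the fit it was 1.

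At D7.5 and D8.5 the calls ran in both directions. At D7.5, 13 genes were lower in CD1530 (11.8% of all genes) and 6 were higher (15.2%), with a median of -0.067 against 0.0078 over all genes. At D8.5, 10 were lower (19.6% of all genes) and 11 higher (20.4%), with a median of 0.024 against 0.0013. Both counts at D8.5, and the 6 higher at D7.5, were near the shares of all genes. The genes on each side are named below as a description, and whether the sides differ in role was not tested. The directions were held between these time points, which share no library: all 10 genes lower at D8.5 were among the 13 lower at D7.5 (76.9% of the 13), all 6 higher at D7.5 were among the 11 higher at D8.5 (54.5% of the 11), and 0 changed side. Over all genes, those lower at both times made up 72.1% of the lower at D7.5 and 43.3% of the lower at D8.5, and those higher at both made up 67.7% of the higher at D7.5 and 50.3% of the higher at D8.5. Changing side was rare over all genes too, at 4.01% of those higher and 1.74% of those lower at D7.5.

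The side that was lower in CD1530 at both times held the kinases Plk1 and Aurka and 3 of the 4 genes of the chromosomal passenger complex, which corrects attachments and then directs cytokinesis. Plk1, the Polo-like kinase, was at 165, 167 and 165 CPM in CD1530 and 191, 188 and 194 CPM in AGN at D7.5 (-0.21 ± 0.037, adjusted p = 2.50e-05). Its D8.5 values were 165, 165 and 172 CPM and 183, 189 and 186 CPM (-0.15 ± 0.037, adjusted p = 0.00116), and the libraries of the conditions did not overlap at either time. Aurka, Aurora kinase A, differed by -0.15 at D7.5 and -0.17 at D8.5. Of the passenger complex, Aurkb, Incenp and Cdca8 were lower at both times, with log2 fold changes from -0.16 to -0.12 at D7.5 and from -0.21 to -0.12 at D8.5. Ccna2 and Ccnb1, cyclins A2 and B1, Racgap1 and Kif23, which form the centralspindlin complex of the midzone, and Bub3 were the other genes on this side.

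On the higher side were Ect2, the exchange factor that sets the cleavage furrow, Spc25, the checkpoint kinase Ttk, the midzone bundler Prc1, and the spindle proteins Dlgap5 and Hmmr. Ect2 was at 135, 138 and 138 CPM in CD1530 and 113, 110.2 and 109.8 CPM in AGN at D7.5, and at 121, 119 and 124 and 97.3, 96.3 and 98.4 CPM at D8.5, with log2 fold changes of 0.31 ± 0.047 and 0.32 ± 0.048 (adjusted p = 2.02e-06 and 7.36e-07). Hmmr had the largest difference at D8.5, at 101, 98.6 and 92.9 CPM in CD1530 and 74.6, 75.2 and 77.0 CPM in AGN (0.37 ± 0.058, adjusted p = 1.41e-06). At D8.5 this side was joined by Bub1b, Anln, Ckap2, Cdc25c and Knstrn. The differences are small, from -0.21 to 0.31 at D7.5 and from -0.23 to 0.37 at D8.5, and no called gene reached 1.5-fold. Leaving out CD1530 D7.5 replicate 1, 2 or 3 lowered the 6 higher and 13 lower calls at D7.5 to 2 and 10, 3 and 8, and 3 and 8, and leaving out AGN D7.5 replicate 3 lowered them to 3 and 8. Which of the 6 and 13 were kept then was not counted. With DESeq2 size factors the D7.5 split was 4 higher and 15 lower.

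The step from D7.5 to D8.5 moved the list little. In CD1530, 14 genes fell (17.7% of all genes) and 4 rose (18.8%), with a median of -0.048 against 0.0027 over all genes. In AGN, 18 fell (20.6% of all genes) and 0 rose, with a median of -0.089 against -0.0049. Pttg1, the securin that holds separase inactive until anaphase, had the largest fall in both, from 27.0, 28.5 and 27.2 to 19.7, 19.3 and 18.2 CPM in CD1530 and from 24.4, 23.0 and 25.9 to 17.2, 17.1 and 16.2 CPM in AGN, a log2 fold change of -0.53 in each (adjusted p = 1.23e-07 and 1.06e-07). The step differed between the conditions for 2 genes, Ckap2 (0.27 ± 0.063, adjusted p = 0.00283) and Knstrn (0.27 ± 0.081, adjusted p = 0.0224), both higher in CD1530 (4.92% of all genes were), and for 1 gene without CD1530 D7.5 replicate 1 or 2, AGN D7.5 replicate 1 or 3, CD1530 D8.5 replicate 3 or AGN D8.5 replicate 1. The 14 and 4 calls of CD1530 became 10 and 1 without CD1530 D7.5 replicate 2, and 8 and 3 without CD1530 D8.5 replicate 2. With library size as the only scaling they were 17 and 0, and 32 fell in AGN.

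From D8.5 to D10 the conditions parted. In CD1530, 39 of the 43 fell (29.9% of all genes fell) and 0 rose, with a median log2 fold change of -0.41 against -0.035 over all genes. In AGN, 15 fell (29.5% of all genes) and 10 rose (29.9%), both near the shares of all genes, with a median of -0.028 against -0.013. With library size as the only scaling, which put the median of all genes at -0.11 in AGN, the AGN split was 24 lower and 5 higher. The difference between the steps was called for 36 of the 43, all lower in CD1530 (14.1% of all genes were), with a median interaction of -0.36 against -0.022 over all genes. Over the whole course, the interaction of condition with all 5 time points was called for 40 of the 43 (48.8% of all genes), the others being Cenpf, Pttg1 and Mki67.

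Dlgap5, a spindle assembly protein, had the largest fall of this step in CD1530, from 113, 112 and 109 to 62.3, 62.3 and 64.6 CPM (-0.82 ± 0.044, adjusted p = 3.03e-19). In AGN it went from 88.7, 86.1 and 86.0 to 81.6, 83.1 and 84.1 CPM, which was not called (adjusted p = 0.178), and the steps differed by -0.75. Hmmr, a microtubule-bound receptor of hyaluronan, fell in CD1530 from 101, 98.6 and 92.9 to 72.3, 64.9 and 67.6 CPM and rose in AGN from 74.6, 75.2 and 77.0 to 91.5, 90.0 and 88.7 CPM, the largest difference between the steps (-0.77 ± 0.083, adjusted p = 1.53e-09). It was thus higher in CD1530 before the step and lower after it, in every library. Ect2 fell in both, from 121, 119 and 124 to 73.8, 69.8 and 74.4 CPM in CD1530 and from 97.3, 96.3 and 98.4 to 82.0, 77.1 and 77.2 CPM in AGN. The phosphatase Cdc25c, which activates Cdk1, went from 25.7, 23.9 and 25.0 to 18.9, 18.4 and 19.0 CPM in CD1530 and from 21.4, 21.8 and 20.7 to 23.7, 24.6 and 27.4 CPM in AGN, down in the former and up in the latter. The 10 genes that rose in AGN, a number near the share of all genes, are named as a description. They were Knstrn (0.44), Spc25 (0.28), Hmmr (0.25), Cdc25c (0.24), Ckap2l (0.24), Nusap1 (0.22), Pttg1 (0.18), Cenpe (0.17), Prc1 (0.16) and Anln (0.16).

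At D10, 40 of the 43 genes were lower in CD1530 than in AGN (24.0% of all genes were) and 1 was higher (22.7%). In 41 of them all 3 CD1530 libraries lay below all 3 AGN libraries, as in 29.6% of all genes. The median log2 fold change was -0.39, a ratio of 0.761, against -0.019 over all genes. The differences were narrow in range and modest in size, and with a fold change of at least 1.5 also required 1 gene was called, Nusap1. The share of all genes that met both limits was not counted. Of the 11 genes that had been higher in CD1530 at D8.5, 9 were lower at D10 (81.8% of the 11 and 22.5% of the 40). Of all genes higher at D8.5, 7.27% were lower at D10. Since 40 of the 43 were lower at D10, most of any 11 listed genes would be, so the 9 show nothing particular to those 11. These time points share no library.

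**Figure D3:**
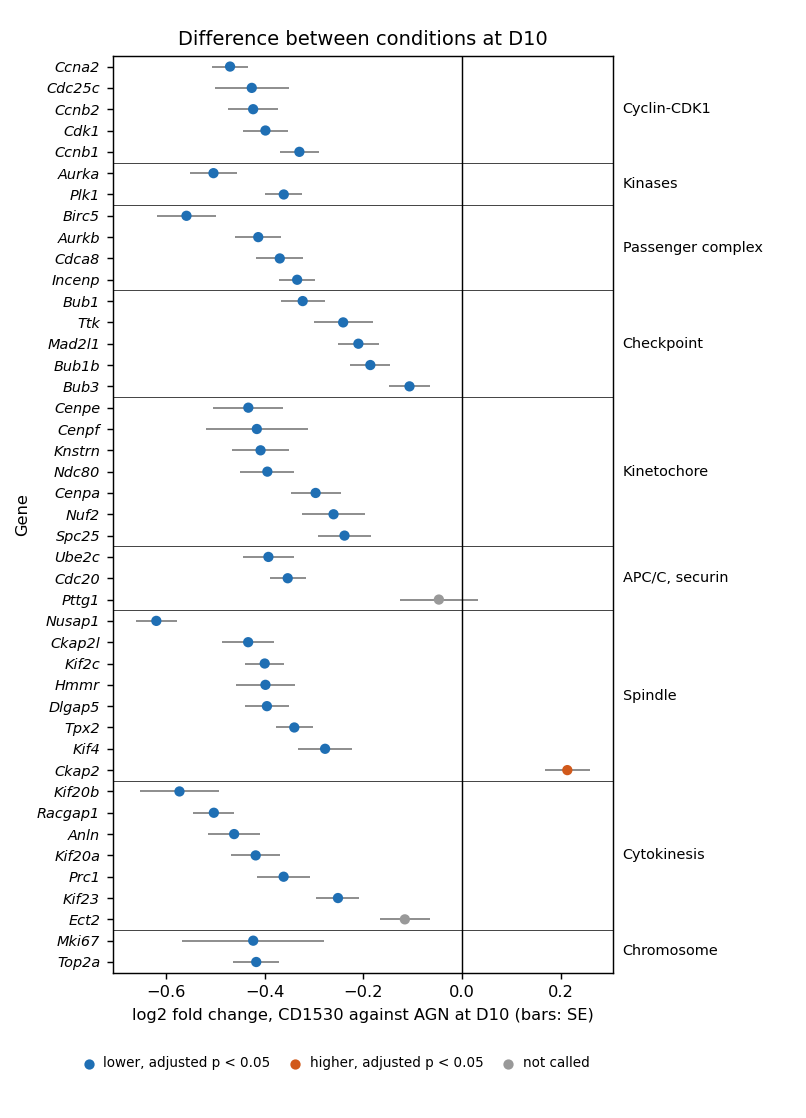
log2 fold change of CD1530 against AGN at D10 (x axis, bars are SE) for each of the 43 genes (y axis), grouped by role and ordered within it. Called genes lie from -0.62 (Nusap1) to -0.11 (Bub3) on the lower side, with Ckap2 alone on the higher side at 0.21 and Pttg1 and Ect2 not called.

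The values of D10 below are those of the 3 CD1530 and the 3 AGN libraries of that day, each followed by the log2 fold change with its SE and the adjusted p. All 5 genes of the cyclin and CDK1 group were lower in CD1530 at D10, with a median log2 fold change of -0.42. Ccna2, which serves both S phase and mitotic entry, differed most, at 127, 129.7 and 131 CPM in CD1530 and 187, 179 and 171 CPM in AGN (-0.47 ± 0.036, adjusted p = 1.66e-14). Cdk1 itself differed by -0.40, Ccnb1 by -0.33, Ccnb2 by -0.42 and the activating phosphatase Cdc25c by -0.43. The kinases Plk1 and Aurka were both lower. Plk1 was at 125, 127 and 133 CPM in CD1530 and 173, 165 and 158 CPM in AGN (-0.36 ± 0.038, adjusted p = 1.18e-10). Aurka was at 85.0, 91.6 and 88.8 CPM in CD1530 and 131, 129 and 116 CPM in AGN (-0.50 ± 0.047, adjusted p = 4.33e-12), and neither gene had a library that crossed to the other side.

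Each of the 4 passenger complex genes was lower, with log2 fold changes from -0.56 to -0.33. Birc5, which encodes survivin, was at 52.0, 52.4 and 54.0 CPM in CD1530 and 80.9, 74.2 and 78.1 CPM in AGN (-0.56 ± 0.059, adjusted p = 1.68e-10). Incenp, the scaffold of the complex, was at 128, 119 and 130.1 CPM in CD1530 and 159, 161 and 154 CPM in AGN (-0.33 ± 0.036, adjusted p = 2.58e-10). Birc5 was at 81.4, 86.2 and 78.9 CPM in PM, from which AGN at D10 was not called as different (-0.081 ± 0.057, adjusted p = 0.187), while Incenp had fallen from PM in both conditions.

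The 5 checkpoint genes were all lower and had the median nearest to 0 of the role groups, -0.21. Bub1b, which encodes BubR1, was at 121, 119 and 121 CPM in CD1530 and 143, 138 and 129 CPM in AGN (-0.19 ± 0.04, adjusted p = 1.77e-04). The kinase Bub1 was at 93.8, 90.5 and 98.2 CPM in CD1530 and 118, 120.0 and 116 CPM in AGN (-0.32 ± 0.044, adjusted p = 6.88e-08). Mad2l1 and Ttk differed by -0.21 and -0.24, and Bub3 by -0.11 ± 0.042, adjusted p = 0.0343. Bub3 is the flattest gene of the list, with group means from 139 to 169 CPM.

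All 7 kinetochore genes were lower, with a median of -0.39. Cenpe, a kinesin that moves chromosomes to the spindle equator, differed most, at 98.3, 87.1 and 98.8 CPM in CD1530 and 124, 135 and 125 CPM in AGN (-0.43 ± 0.071, adjusted p = 7.17e-06). Cenpf, a large outer kinetochore protein, was at 100.5, 90.1 and 102 CPM in CD1530 and 117, 138 and 135 CPM in AGN (-0.42 ± 0.10, adjusted p = 0.00191), with a wide spread in AGN. The centromeric histone Cenpa differed by -0.30, and Ndc80, Nuf2 and Spc25 of the NDC80 complex by -0.39, -0.26 and -0.24. Among the APC/C and securin genes, the APC/C activator Cdc20 was at 155, 157 and 154 CPM in CD1530 and 195, 193 and 208 CPM in AGN (-0.35 ± 0.036, adjusted p = 5.89e-11). Its ubiquitin-conjugating enzyme Ube2c was at 115, 122 and 118 CPM in CD1530 and 158, 152 and 157 CPM in AGN (-0.39 ± 0.051, adjusted p = 2.71e-08), again with no overlap.

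Of the 8 genes of spindle proteins and motors, 7 were lower. Nusap1 had the largest difference of the 43, at 64.3, 66.8 and 69.3 CPM in CD1530 and 106, 99.8 and 102 CPM in AGN (-0.62 ± 0.042, adjusted p = 4.31e-16), and PM held 105, 106 and 104 CPM. Tpx2, the activator of Aurora A on the spindle, was at 171, 159 and 168 CPM in CD1530 and 213, 212 and 207 CPM in AGN (-0.34 ± 0.037, adjusted p = 2.91e-10). The motors Kif2c and Kif4 differed by -0.40 and -0.28, and Hmmr, Dlgap5 and Ckap2l by -0.40, -0.40 and -0.43. Of the 7 cytokinesis genes, 6 were lower. Anln, the actin binding scaffold anillin, was at 116, 111 and 116 CPM in CD1530 and 159.5, 154 and 159 CPM in AGN (-0.46 ± 0.052, adjusted p = 8.93e-10). Kif20b was at 55.7, 47.3 and 55.0 CPM in CD1530 and 75.5, 84.6 and 75.0 CPM in AGN (-0.57 ± 0.08, adjusted p = 7.32e-07). Prc1, the midzone bundler, was at 86.9, 84.2 and 86.5 CPM in CD1530 and 118, 109 and 105 CPM in AGN (-0.36 ± 0.054, adjusted p = 3.17e-07). Racgap1, Kif20a and Kif23 differed by -0.50, -0.42 and -0.25.

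Top2a, the topoisomerase that untangles sister chromatids, had the highest CPM of the list, at 485, 470.3 and 482 CPM in CD1530 and 640.4, 663 and 616 CPM in AGN (-0.42 ± 0.046, adjusted p = 1.01e-09). Against 865, 820.0 and 866 CPM in PM, both conditions were lower. Mki67 was at 244, 220.1 and 237 CPM in CD1530 and 296, 333 and 310.1 CPM in AGN (-0.42 ± 0.14, adjusted p = 0.0189). Its SE was the widest of the list, and the call was lost without CD1530 D10 replicate 2 (adjusted p = 0.0677) and without AGN D10 replicate 2 (adjusted p = 0.0677). Ki-67 protein is the usual histological marker of cycling cells, but neither the protein nor the share of cycling cells was measured in these libraries. The Mki67 transcript was not called lower than in PM at D10 in either condition, unlike 39 of the 43 genes in CD1530 and 29 in AGN. AGN at D10 was above the PM values of 240.2, 198 and 223 CPM (0.51 ± 0.14, adjusted p = 0.00269), and CD1530 overlapped with them (0.083 ± 0.14, adjusted p = 0.601).

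The genes that went their own way at D10 were few. Ckap2, a microtubule-associated protein of the spindle, was the only gene higher in CD1530, at 79.2, 80.2 and 77.4 CPM in CD1530 and 69.8, 69.2 and 65.3 CPM in AGN (0.21 ± 0.046, adjusted p = 1.46e-04), and it kept that direction in all 15 alternatives tried, with log2 fold changes from 0.18 to 0.25. It had been higher in CD1530 at D8.5 as well (0.19), and from D8.5 to D10 it was not called in either condition. Ckap2l, a paralogue of Ckap2, was lower at D10, at 53.2, 52.9 and 57.8 CPM in CD1530 and 73.6, 74.2 and 73.5 CPM in AGN (-0.43 ± 0.052, adjusted p = 3.50e-09). Pttg1 was at 19.6, 18.8 and 17.3 CPM in CD1530 and 18.7, 19.0 and 19.9 CPM in AGN, which overlap (adjusted p = 0.665). Ect2 was at 73.8, 69.8 and 74.4 CPM in CD1530 and 82.0, 77.1 and 77.2 CPM in AGN, with no overlap but no call in the fit used (-0.12 ± 0.051, adjusted p = 0.0599), and was called with DESeq2 size factors (adjusted p = 0.0292), by DESeq2 (adjusted p = 0.0397) and with only the 6 libraries of D10 (adjusted p = 0.0466).

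**Figure D4:**
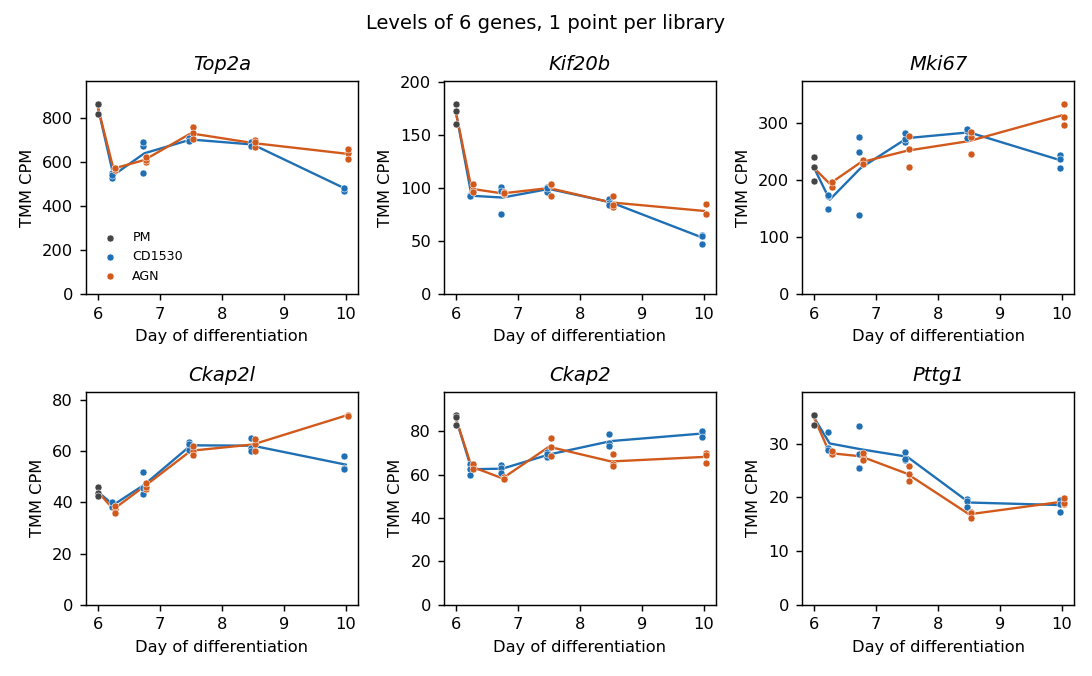
TMM CPM (y axis, from 0) against day of differentiation (x axis) for Top2a, Kif20b, Mki67, Ckap2l, Ckap2 and Pttg1, with 1 point per library and lines through group means. Top2a shows the common course. Kif20b recovers little after plating, with a highest monolayer mean of 58.1% of PM in CD1530 and 58.6% in AGN. Mki67 and Ckap2l end above PM in AGN, Ckap2 ends higher in CD1530, and Pttg1 is lower than PM in both conditions at D10, with the conditions overlapping. The low point of CD1530 at D6.75 in Mki67 and Top2a is replicate 1.

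Set against PM, D10 was lower for most of the list in both conditions. In CD1530, 39 of the 43 were lower than in PM (39.9% of all genes) and 3 higher (43.3%), with a median log2 fold change of -0.76 against 0.043 over all genes. In AGN, 29 were lower (40.4% of all genes) and 4 higher (41.6%), with a median of -0.33 against -0.0025. The lowest ratio to PM in both was that of Kif20b, 30.9% in CD1530 and 45.9% in AGN. Ccnb1, cyclin B1, was next in log2 fold change, -1.44 ± 0.038 in CD1530 and -1.12 ± 0.037 in AGN, and Cenpa followed with -1.23 and -0.93.

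A small set stood above PM. Ckap2l was at 46.1, 43.6 and 42.4 CPM in PM and rose to 124% of that in CD1530 and 168% in AGN at D10 (0.31 ± 0.054 and 0.74 ± 0.053, adjusted p = 1.63e-06 and 2.21e-16). Knstrn, a kinetochore and spindle pole protein, was at 34.6, 34.0 and 32.9 CPM in PM, and at 38.9, 39.3 and 41.9 CPM in CD1530 and 51.8, 52.8 and 54.7 CPM in AGN (PM to D10 0.24 and 0.65). Spc25 was at 40.6, 43.4 and 42.3 CPM in PM, and at 47.7, 45.2 and 45.6 CPM in CD1530 and 56.5, 53.3 and 53.8 CPM in AGN (PM to D10 0.13 and 0.37). In each of these 3, both conditions ended above PM and CD1530 ended below AGN. Cdc25c, Cenpe, Nuf2, Kif4, Tpx2, Nusap1, Prc1, Racgap1, Birc5 and Bub3 were not called between PM and D10 in AGN, with log2 fold changes from -0.092 to 0.066, and all of them were lower than PM in CD1530.

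Within the monolayer time points, 26 of the 43 had their highest group mean at D7.5 in CD1530 and 26 did in AGN. The lowest mean was at D10 for 29 genes in CD1530 and for 10 in AGN, where 23 were lowest at D6.25. The D10 mean was a median of 71.0% of a gene's own highest monolayer mean in CD1530, with Dlgap5 lowest at 51.2%, and 90.8% in AGN, with Ccnb1 lowest at 64.8%. D10 was itself the highest monolayer mean for 12 genes in AGN and for 1, Ckap2, in CD1530. These counts describe group means of 3 libraries and carry no test.

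**Figure D5:**
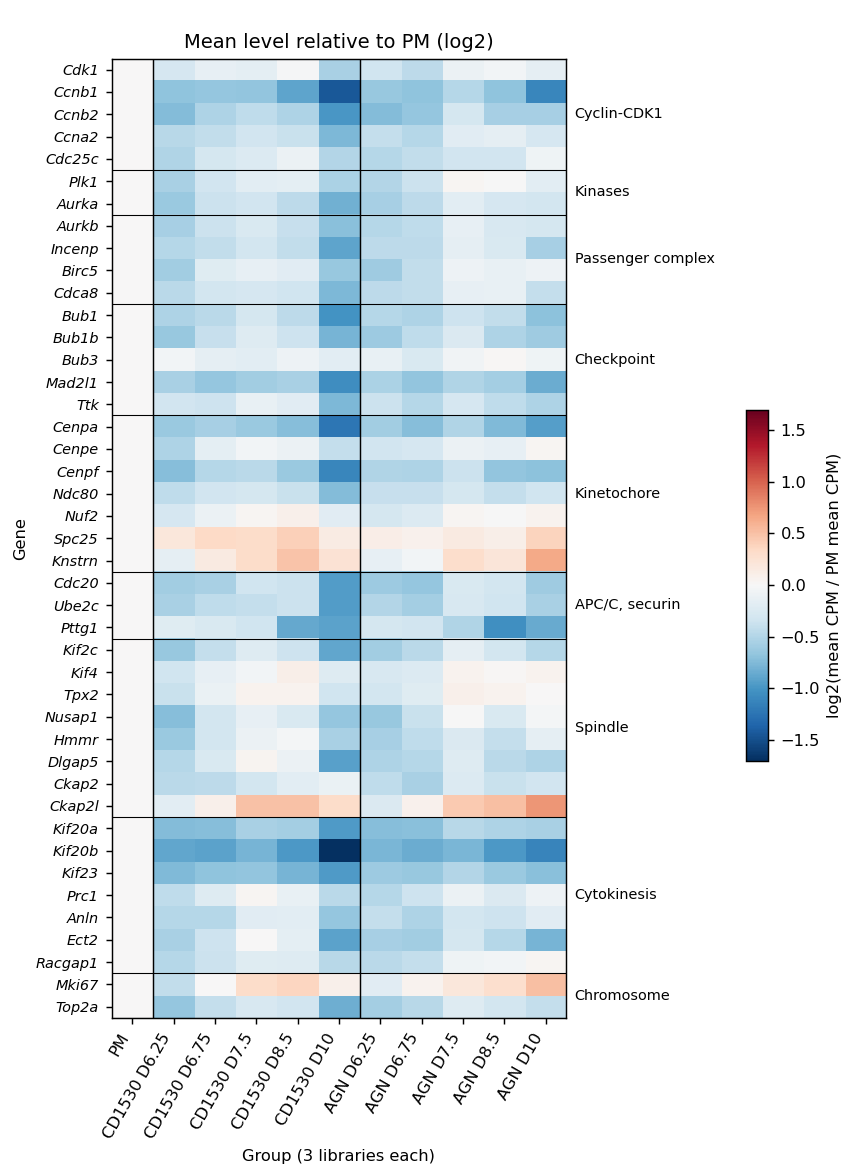
log2 ratio of the mean CPM of each group (columns, 3 libraries each) to the PM mean, for the 43 genes (rows) ordered by role, on a colour scale from blue (below PM) to red (above). The darkest blue is Kif20b in CD1530 at D10 (30.9% of PM), and the reddest rows are Spc25, Knstrn, Ckap2l and Mki67.

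Levels of different genes can be compared only per length, for which CPM was divided by the kilobases of merged exons in GENCODE M21 (build GRCm38). On that scale Cdc20 was the most abundant in PM, at 161 ± 3.3 CPM per kilobase (mean ± SD, n = 3), followed by Top2a at 94.4 ± 2.9, Ccnb2 at 89.4 ± 2.7, Ube2c at 87.7 ± 5.5 and Plk1 at 85.2 ± 2.4. Neighbours in that order after Cdc20 differ by no more than the larger of their SDs, except that Top2a lies above Ccnb2 by more, and Cdc20 stood clear of them. Cdc25c was the lowest at 5.42 ± 0.24, and the median of the 43 was 24.2. At D10 Cdc20 was still highest and Cdc25c lowest in both conditions, at 83.2 ± 1.0 and 3.82 ± 0.063 in CD1530 and at 106 ± 4.2 and 5.13 ± 0.39 in AGN. The genes lie on 18 chromosomes. Exons of 13 of the 43 genes overlap those of another annotated gene, 9 of them a protein-coding gene on the opposite strand (for example Elovl1 at Cdc20, Tnnc2 at Ube2c, Oip5 at Nusap1 and Exosc9 at Ccna2), and Ccnb1, Ccnb2 and Kif4 have annotated pseudogenes. How the counting treated strand and shared reads is not given in the sources used here, so the levels of these genes are less certain.

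A wider list of other mitotic genes, 121 of 123 of which were in the table, was counted in the same fit. At D10, 79 of the 121 were lower in CD1530 and 8 higher (24.0% and 22.7% of all genes were), with a median log2 fold change of -0.24. From D8.5 to D10, 93 fell and 8 rose in CD1530 (29.9% of all genes fell, and 4686 of the 17120 rose). In AGN 48 fell and 16 rose (29.5% and 29.9% of all genes). With library size as the only scaling, which also lowered the median of all genes in this step, 72 fell and 9 rose. By function, against those 24.0% of all genes, the genes of condensin, cohesin and separase were lower at D10 in 17 of 18, kinetochore and centromere genes in 21 of 32 with 3 higher, genes of mitotic entry and its transcription in 17 of 26 with 2 higher, spindle and centrosome genes in 16 of 28 with 3 higher, and APC/C genes in 8 of 17.

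Named by the size of the difference within each of these groups, Esco2, a cohesin acetyltransferase, was at 22.6 ± 0.51 CPM in CD1530 and 40.9 ± 1.2 CPM in AGN (mean ± SD, n = 3), with -0.85 ± 0.067 as log2 fold change and its SE (adjusted p = 2.89e-14). Cdca5, sororin, which guards cohesion, differed by -0.63. Cenpp of the inner kinetochore had the largest difference of the wider list (-0.91) at a low level, with 5.44 and 10.2 CPM, and Ska1 differed by -0.60. The APC/C inhibitor Fbxo5 and the subunit Anapc11 differed by -0.56 and -0.37, the kinesin Kif18a and the spindle protein Fam83d by -0.54 and -0.47, and Mybl2, the B-Myb factor of G2 and M phase genes, by -0.50. Gtse1, a microtubule-binding protein that restrains p53, went the other way, at 152 ± 2.0 CPM in CD1530 and 104 ± 5.2 CPM in AGN (mean ± SD, n = 3), with 0.55 ± 0.035 as log2 fold change and its SE (adjusted p = 8.57e-17).

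Markers of other cell types moved between the conditions at D10 beside the mitotic genes. Over 6 cartilage genes the summed level was 749 to 763 CPM in CD1530 and 3979.8 to 4166 CPM in AGN, and all 6 were lower in CD1530. Over 8 tendon genes it was 20402 to 21053 CPM in CD1530 and 28694 to 30429 CPM in AGN, with 1 higher and 5 lower in CD1530. The 8 neural genes summed to 96.0 to 100.3 CPM in CD1530 and 45.4 to 50.5 CPM in AGN, with 7 higher and 1 lower in CD1530, and Neurog2 at 0 in AGN. Of 13 listed genes of the cleavage-stage embryo, from the Zscan4, Usp17l and Tcstv families, 10 were in the table, which summed to 31.6 to 34.4 CPM in CD1530, all 10 being higher there, and to 0.0625 to 0.297 CPM in AGN, where 6 of the 10 were at 0. The 8 pluripotency genes summed to 360.2 to 377 CPM in CD1530 and 480.1 to 495 CPM in AGN, against 3792 to 3916 CPM in PM. Although this sum was lower in CD1530, 4 of the 8 genes were called higher there and 2 lower. Paraxial mesoderm genes summed to 171 to 181 and 213 to 217 CPM, endothelial genes to 155 to 169.8 and 143 to 153 CPM, endoderm genes to 29.2 to 32.2 and 23.9 to 28.8 CPM, and muscle genes to 2.86 to 3.71 and 5.31 to 6.32 CPM, CD1530 first. Of the paraxial mesoderm genes, 4 were called higher in CD1530 and 2 lower, against the direction of their sum. Endothelial genes had 3 higher and 2 lower, endoderm genes 4 and 1, and muscle genes 0 and 3. The part of any of these cell types in the difference of the mitotic genes was not tested.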

How the data were processed

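RNA of 33 mouse cultures (11 groups of 3) had been sequenced. Per the study's methods and processing notes, reads were aligned with STAR 2.7 to GRCm38, assigned to genes with featureCounts 1.6.0 and analysed with edgeR 3.28.1. The annotation, strand setting and treatment of reads with several matches are not given in the sources used here. The authors deposited whole-number read counts per gene, with 0 columns that matched no sample, and these counts were used as deposited. They hold 17120 genes.

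Groups were taken from the sample labels. In R 4.3.3, edgeR 4.0.16 (filterByExpr, which removed 0 genes, TMM factors, robust glmQLFit and glmQLFTest) was fitted once to all 33 libraries, and 22 contrasts were tested with Benjamini-Hochberg adjustment over all genes at 0.05. An interaction is the log2 fold change of a step in CD1530 minus that in AGN. The scripts were tested on simulated data. Depth was 17116084 to 38120841 counts per library, and the biological coefficient of variation was 4.68%. Levels were compared per kilobase of merged exons (GENCODE M21), and promoters came from RefSeq (GRCm38.p6).

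The members and lists were chosen with earlier results of these data known. Values per library are given for the member of each of 9 role groups with the highest mean CPM and that with the largest difference at D10, for members called against the majority at D10, from D8.5 to D10 or from PM to D10, and for members not called at D10. Of the wider list, the 2 called genes with the largest difference at D10 in each sub-list are named. Cdk1, Dlgap5, and values at other time points were added after the values were seen. Same-numbered libraries of the conditions did not deviate together (r from -0.18 to 0.070 in 15 pairs), so replicate numbers were not used as a block. The methods call the replicates biological without saying how they were separated, so p-values measure the spread between these libraries. Alternatives were DESeq2 1.42.0, its size factors, library size alone, other filters, no robust step, a replicate block, only the groups compared, a fold change of at least 1.5, and leaving out each library.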

Additional observations from a re-analysis of the deposited data

Results flagged for a closer look

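The course of the listed genes differed between CD1530 and AGN by tests of the difference itself, in edgeR's quasi-likelihood F-test with adjusted p under 0.05. Over all 5 time points the difference was called for 40 of the 43 genes, against 48.8% of all genes. By single steps it was called for 3 genes from D6.25 to D6.75, all higher in CD1530 (2.29% of all genes), for 15 from D6.75 to D7.5, all lower (3.41%), for 2 from D7.5 to D8.5, both higher (4.92%, so near the share of all genes), and for 36 from D8.5 to D10, all lower (14.1%). The first and the third of these step counts depend on single libraries, and the second was 3 with only the groups compared in the fit.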

How the results depend on the processing

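Each of the 22 counts of called members was recomputed under the alternatives. DESeq2, both filters, the fit without the robust step and the fit with the replicate block left all 22 within 1.5 times (41 with the replicate block at D10, as without it). Replicate numbers did not pair the libraries.

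With library size as the only scaling, 15 were called from D6.25 to D6.75 in AGN (7 higher and 8 lower, against 9 and 4, and 8 and 6 with DESeq2 size factors), 32 from D7.5 to D8.5 in AGN, and 6 in the interaction of that step. It also put the median of all genes at -0.13 (D8.5 to D10 in CD1530), -0.11 (the same in AGN) and -0.15 (PM to D10 in AGN). The splits were 0 and 17 from D7.5 to D8.5 in CD1530 and 5 and 24 from D8.5 to D10 in AGN, higher first. With DESeq2 size factors CD1530 against AGN at D7.5 gave 4 and 15.

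With only the groups compared in the fit, CD1530 against AGN gave 4 at D6.25 and 1 at D6.75, the CD1530 steps to D6.75 and D7.5 gave 12 and 6, the AGN step to D6.75 gave 21, and the interactions of the steps to D6.75, D7.5 and D8.5 gave 0, 3 and 6. These fits hold fewer libraries, and the share of all genes called in them is not given here.

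With a fold change of at least 1.5 also required, for which the share of all genes was not counted, CD1530 against AGN gave 0 at D6.75, D7.5 and D8.5 and 1 at D10. The CD1530 steps from PM to D10 gave 15, 0, 0, 0 and 4, the AGN steps 10, 0, 0, 0 and 0, PM to D10 gave 27 in CD1530 and 13 in AGN, and the interactions of the 4 later steps gave 0, 0, 0 and 6.

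The mean summed level with DESeq2 size factors was 6811 CPM in PM, 5593 in CD1530 D7.5, 5405 in CD1530 D8.5, 5448 in AGN D8.5 and 5346 in AGN D10. With library size alone it was 4830 in CD1530 D6.25, 4965 in AGN D6.25, 5013 in AGN D6.75, 5784 and 5997 in CD1530 and AGN D7.5, 5432 and 5320 in CD1530 and AGN D8.5, and 3787 and 4757 in CD1530 and AGN D10, so that CD1530 stayed lower at D10 under each scaling.

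With each compared library left out in turn, 6 to 16 were called for CD1530 against AGN at D6.75 (16 without CD1530 D6.75 replicate 1), 11 to 17 at D7.5, 11 to 15 for the CD1530 step to D8.5, 0 to 12 for the interaction of the step to D6.75 (12 without CD1530 D6.75 replicate 1) and 1 to 3 for that of the step to D8.5. The other counts stayed within 1.5 times, with 39 to 40 at D10 and 35 to 37 for the interaction of the last step.

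Of 390 values of named genes at D10 under alternatives, 361 stayed on their side of the threshold, 25 lost the call (23 of them where a fold change of at least 1.5 was required, and Mki67 without CD1530 D10 replicate 2 or AGN D10 replicate 2), 3 gained it (Ect2) and 1 turned: Pttg1 was at 0.00 without CD1530 D10 replicate 3 (adjusted p = 0.989) and at -0.09 without replicate 1. The causes of these changes were not tested. Groups of 3 libraries limit every comparison, and of the listed genes Mki67 had the widest SE at D10.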
